A study of Homo sapiens with 6 samples.

Results

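The genes described here encode SR proteins, the kinases that phosphorylate them and the hnRNP proteins, which together set splice site choice in human cells. They are 34 genes chosen by symbol, by a rule that uses no measured value but was drawn up with earlier results of these data known, and all 34 have a row of their own among the 56638 rows of the count table. The cells were MOLM-13, an established line from acute myeloid leukaemia that carries a KMT2A-MLLT3 fusion, given 2 µM UC-764864 or DMSO, its solvent, for 24 h. The compound is named in the series title as an inhibitor of UBE2N, an enzyme that attaches ubiquitin chains, and the design text spells it UC-744864. Poly(A) RNA was sequenced in 3 libraries per group: UDI0051, UDI0052 and UDI0053 after UC-764864, and UDI0054, UDI0055 and UDI0056 after DMSO. The labels do not tell separate cultures of this single line from repeat libraries, so p-values measure the spread between libraries, which may be technical. A bulk level averages over cells, so that fewer cells with a transcript and less transcript per cell cannot be told apart.

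SR proteins bind exonic enhancer sequences through RNA recognition motifs and recruit the U1 and U2 particles through domains rich in arginine and serine. CLK and SRPK kinases phosphorylate those domains and so govern where SR proteins sit in the nucleus and whether they act. Many hnRNPs coat nascent transcripts and act against exon inclusion from silencer elements, and most SR and several hnRNP genes hold conserved "poison" exons whose inclusion sends their own transcript to nonsense-mediated decay. The deposited values are counts summed over all isoforms of a gene, so they show the amount of transcript and not which exons were used.

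Libraries held 16136156 to 25014437 counts. UDI0055 holds only 0 in 3799 rows that include the X-linked and mitochondrial genes, so 52839 rows were used. None of the 34 genes lies in the rows left out. Counts in the libraries of a group differed by more than sampling noise, at a chi-square of 4.73 to 45.0 per degree of freedom, so all 6 were kept. UDI0052 and UDI0056 stood apart in base composition. Genes with a GC content of at least 56.5% took 18.8% and 18.2% of their counts, against 21.5% to 23.9% in the others. All 11 myeloid leukaemia markers were detected, and 22 of 23 markers of lymphoid, erythroid, megakaryocytic, stromal or epithelial cells that the rows hold were below 1 CPM (counts scaled to a common library size, with TMM factors) on average. Of the myeloid markers LYZ rose and CSF1R, ITGAM and HOXA9 fell. The 11 markers summed to 6433 to 7423 CPM after UC-764864 against 4183 to 4448 CPM after DMSO. Most of that sum was LYZ, at 5848 ± 503 CPM against 3170 ± 120 CPM (mean ± SD, n = 3). The sum therefore does not describe the other myeloid markers. Sums were lower after UC-764864, without overlap, for lymphoid markers (1.36 to 1.89 against 2.05 to 2.74 CPM, CD3G and MS4A1 at 0) and stromal and epithelial markers (0.947 to 1.53 against 2.43 to 2.86 CPM, COL3A1 and KRT5 at 0). CD3D and PDGFRB fell among them. Erythroid and megakaryocytic markers summed to 0.129 to 0.474 against 0.461 to 0.707 CPM, and HBA1, HBA2, PF4 and PPBP were among those at 0. The part of these markers in the splicing results was not tested.

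All 34 genes passed the filter on low counts, and each held at least 202 counts in each library. HNRNPA2B1, HNRNPR, HNRNPAB, HNRNPD and SRSF4 rose, and SRSF3 fell, while the other 28 genes did not pass the test. These 5 rises among 34 genes compare with 5.11% of all 13490 genes tested, and the single fall with 8.13% (edgeR quasi-likelihood test, Benjamini-Hochberg adjusted p under 0.05). The median log2 fold change was 0.23 over the 34 genes and 0.01 over all genes. The 3 UC-764864 libraries lay above all 3 DMSO libraries for 13 of the 34 genes and below them for 1, against 19.0% and 17.0% of all genes tested.

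**Figure D1:**
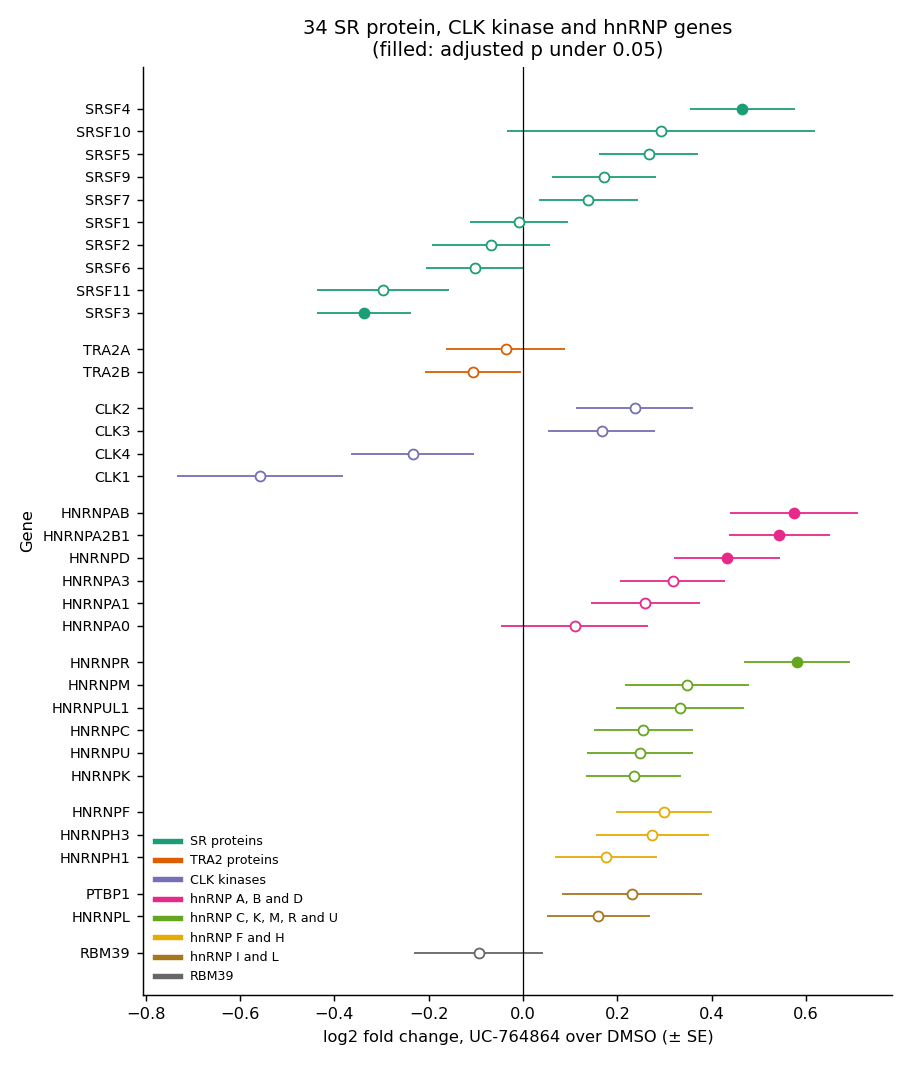
Log2 fold change of each of the 34 genes, UC-764864 over DMSO, with its standard error (horizontal bar), grouped and coloured by protein class; filled points passed the adjusted p threshold. The 17 hnRNP genes, PTBP1 included, all lie to the right of 0, from 0.11 to 0.58, whereas 5 of 10 SR protein genes lie on each side.

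The sequences before the start sites of the 6 genes that changed are shown so that the genes that rose can be set beside SRSF3, which fell. Each is the 250 bases upstream of the RefSeq start on the gene's strand, 5′ to 3′, in build GRCh38.p14, and was matched by symbol in a table that holds 30 of the 34 genes. They lie at chr7:26200747-26200996 (minus strand) for HNRNPA2B1, chr1:23344285-23344534 (minus) for HNRNPR and chr5:178204283-178204532 (plus) for HNRNPAB. Those of HNRNPD, SRSF4 and SRSF3 lie at chr4:82373992-82374241 (minus), chr1:29181901-29182150 (minus) and chr6:36594112-36594361 (plus). Capitals mark matches on either strand to the motifs below, of which the E-box is CACGTG. The other motifs searched were the ETS core, which is CCGGAAG, and the CRE-like element, which is TGACGT. The TATA box was searched as TATAAA, and the CCAAT box by those letters. The YY1 site was searched as ATGGCGGC. Each was searched separately, so that overlapping matches would count for each.
HNRNPA2B1: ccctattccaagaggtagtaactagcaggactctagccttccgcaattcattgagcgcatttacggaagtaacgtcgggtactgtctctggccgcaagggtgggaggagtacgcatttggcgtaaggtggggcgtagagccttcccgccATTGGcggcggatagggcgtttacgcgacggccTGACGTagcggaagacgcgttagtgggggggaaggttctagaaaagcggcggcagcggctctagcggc
HNRNPR: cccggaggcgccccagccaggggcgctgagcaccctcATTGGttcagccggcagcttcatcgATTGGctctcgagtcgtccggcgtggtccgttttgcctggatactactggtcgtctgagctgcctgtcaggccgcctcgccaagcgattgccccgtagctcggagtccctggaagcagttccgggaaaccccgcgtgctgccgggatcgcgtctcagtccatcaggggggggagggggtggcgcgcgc
HNRNPAB: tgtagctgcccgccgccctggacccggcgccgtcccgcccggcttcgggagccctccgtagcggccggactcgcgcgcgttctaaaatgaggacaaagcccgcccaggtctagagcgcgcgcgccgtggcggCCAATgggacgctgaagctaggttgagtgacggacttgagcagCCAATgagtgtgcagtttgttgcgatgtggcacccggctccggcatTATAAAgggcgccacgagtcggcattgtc
HNRNPD: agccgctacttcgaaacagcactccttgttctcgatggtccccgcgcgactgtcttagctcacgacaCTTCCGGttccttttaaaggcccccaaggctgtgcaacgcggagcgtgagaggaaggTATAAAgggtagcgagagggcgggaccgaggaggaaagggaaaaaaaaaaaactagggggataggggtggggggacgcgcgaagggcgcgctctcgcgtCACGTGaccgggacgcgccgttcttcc
SRSF4: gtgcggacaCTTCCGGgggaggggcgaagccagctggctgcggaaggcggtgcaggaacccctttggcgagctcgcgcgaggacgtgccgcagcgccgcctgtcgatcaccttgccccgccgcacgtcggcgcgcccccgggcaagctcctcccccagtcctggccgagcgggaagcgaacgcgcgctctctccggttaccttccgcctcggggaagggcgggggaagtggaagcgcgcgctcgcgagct
SRSF3: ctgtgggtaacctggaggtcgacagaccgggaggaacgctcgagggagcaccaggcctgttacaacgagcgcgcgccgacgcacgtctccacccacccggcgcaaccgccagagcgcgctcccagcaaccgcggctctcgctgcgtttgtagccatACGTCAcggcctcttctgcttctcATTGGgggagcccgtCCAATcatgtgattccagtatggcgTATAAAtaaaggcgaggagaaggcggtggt

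No motif was shared by all 6 windows. A CCAAT box stood in those of HNRNPA2B1, HNRNPR, HNRNPAB and SRSF3, a TATA box in those of HNRNPAB, HNRNPD and SRSF3, and an ETS core in those of HNRNPD and SRSF4. A CRE-like element stood in those of HNRNPA2B1 and SRSF3, an E-box in that of HNRNPD, and a YY1 site in none. SRSF3, the gene that fell, thus had a CCAAT box in common with 3 genes that rose. It also shared a TATA box with HNRNPAB and HNRNPD, and a CRE-like element with HNRNPA2B1. Over the 45 windows of the 30 matched genes, a CCAAT box was found in 37.78%, against 32.01% of all 35116 windows of this length. The shares were 13.33% against 6.34% for the E-box, 15.56% against 7.1% for the CRE-like element and 8.89% against 8.52% for the ETS core. They were 13.33% against 10.72% for the TATA box, and for the YY1 site 2.22% against 1.3%. Some genes have several overlapping windows, and a match describes letters only.

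The hnRNPs of type A, B and D, which bind A/U-rich and UAGG-like elements and also accompany mRNA to the cytoplasm, held 3 of the 5 rises. HNRNPA2B1, which has roles in exon skipping and in reading methylated adenosine, stood at 1940.0, 2059 and 1694 CPM in UDI0051, UDI0052 and UDI0053, and at 1246, 1356 and 1304 CPM in UDI0054, UDI0055 and UDI0056. Every UC-764864 library was above every DMSO library. The means were 1898 ± 186 and 1302 ± 55.0 CPM (SD, n = 3), a 1.46-fold rise (log2 fold change 0.54 ± 0.11 SE, edgeR adjusted p = 0.0114). HNRNPAB, which binds both RNA and single-stranded DNA, stood at 306, 289.8 and 272 CPM after UC-764864 and at 183, 234 and 165 CPM after DMSO. UDI0055 was the highest DMSO library and still lay below the lowest UC-764864 library. HNRNPAB rose 1.49-fold (0.57 ± 0.14, adjusted p = 0.0211). HNRNPD, which encodes AUF1 and targets A/U-rich mRNAs for decay, stood at 430.3, 464 and 413 CPM against 295, 356 and 317 CPM, again without overlap, and rose 1.35-fold (0.43 ± 0.11, adjusted p = 0.0291). HNRNPA2B1 missed the threshold without UDI0051 (adjusted p = 0.0585) or UDI0054 (0.0522), and HNRNPAB without UDI0051 (0.0992), UDI0053 (0.0537) or UDI0054 (0.0931). HNRNPD missed it without UDI0051, UDI0052, UDI0053 or UDI0054 (0.122, 0.0916, 0.0748 and 0.128), and without both UDI0052 and UDI0056 (0.0625).

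HNRNPA1, HNRNPA3 and HNRNPA0 of the same class did not pass. HNRNPA1, which blocks exon definition and counteracts SRSF1, stood at 1569.7, 1591 and 1474 CPM after UC-764864 and at 1272, 1474 and 1125 CPM after DMSO. Its highest DMSO library, UDI0055, reached the lowest UC-764864 library to the digits shown (0.26 ± 0.12, adjusted p = 0.15). HNRNPA3, which binds the same kind of sites and telomeric repeats, stood at 480.2 to 569 CPM against 405 to 456 CPM, without overlap (0.32 ± 0.11, adjusted p = 0.0765). HNRNPA0, a substrate of the MAPKAPK2 kinase that stabilizes inflammatory mRNAs, ran from 168 to 220.1 CPM after UC-764864 and from 153 to 226 CPM after DMSO, so the DMSO libraries spanned the treated ones (0.11 ± 0.16, adjusted p = 0.665). HNRNPA1 passed without UDI0055 (adjusted p = 0.0235). HNRNPA3 passed without UDI0055 (0.035), and at 0.64 once each library's trend on GC content was removed (0.00275).

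HNRNPR was the only gene to pass among those of hnRNP C, K, M, R and U, and it had the highest log2 fold change of the 34 genes. This relative of SYNCRIP binds mRNA 3′ regions and acts in neuronal RNA transport as well as in the nucleus. It stood at 323, 330.2 and 274 CPM after UC-764864 and at 199.7, 213 and 208 CPM after DMSO. The DMSO libraries lay close together, and the lowest UC-764864 library, UDI0053, was well above them. HNRNPR rose 1.495-fold (0.58 ± 0.11, adjusted p = 0.0109), and it missed the threshold without UDI0051 (adjusted p = 0.0646) or UDI0054 (0.0521). The size of its rise depended on the GC trend, and was 1.03 on the log2 scale with that trend removed (adjusted p = 0.000325). HNRNPM, which represses exons in epithelial and mesenchymal switching, stood at 445 to 479.6 CPM after UC-764864 and at 317, 433 and 328 CPM after DMSO (0.35 ± 0.13, adjusted p = 0.0959). Its groups did not overlap, and UDI0055 lay nearest to the treated libraries. HNRNPC, which sorts transcripts by length and keeps U2AF2 off Alu exons, stood at 1249.7 to 1408 CPM against 1009.6 to 1145 CPM (0.25 ± 0.10, adjusted p = 0.122). HNRNPK, a poly(C)-binding protein with roles in haematopoiesis, stood at 1189 to 1325 CPM against 1010.4 to 1118 CPM, also without overlap (0.23 ± 0.10, adjusted p = 0.137). HNRNPU, a scaffold protein that also binds chromatin, stood at 1007 to 1198 CPM against 848 to 1022 CPM (0.25 ± 0.11, adjusted p = 0.158), and HNRNPUL1, its paralog, at 613 to 699 CPM against 447 to 635 CPM (0.33 ± 0.14, adjusted p = 0.12). The groups overlapped for HNRNPU and HNRNPUL1. HNRNPM and HNRNPUL1 passed without UDI0055 (adjusted p = 0.00815 and 0.0101). HNRNPC, HNRNPK and HNRNPU passed once the GC trend was removed, with values of 0.46, 0.27 and 0.53 (adjusted p = 0.00205, 0.0236 and 0.00687).

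The genes of hnRNP F and H, whose proteins bind G-runs, and those of PTBP1 (hnRNP I) and HNRNPL, which bind pyrimidine-rich and CA-rich tracts, did not pass. HNRNPF stood at 571 to 599 CPM after UC-764864 and at 449.6 to 509 CPM after DMSO, without overlap (0.30 ± 0.10, adjusted p = 0.073). HNRNPH3 had 159 to 195 CPM against 139.9 to 162 CPM (0.27 ± 0.12, adjusted p = 0.142), and HNRNPH1 625 to 735 CPM against 574 to 645 CPM (0.18 ± 0.11, adjusted p = 0.29). In both, the lowest UC-764864 library was UDI0053 and it fell below the highest DMSO library, UDI0056. PTBP1, a repressor of neuronal and muscle exons, stood at 799, 664 and 791 CPM after UC-764864 and at 592, 793 and 535 CPM after DMSO. The DMSO library UDI0055 was as high as the highest treated libraries, and the log2 fold change of 0.23 ± 0.15 did not pass (adjusted p = 0.308). HNRNPL, a repressor and activator of exons such as those of CD45, stood at 368 to 393 CPM against 307 to 370.1 CPM (0.16 ± 0.11, adjusted p = 0.343). Without UDI0055, HNRNPF and PTBP1 passed (adjusted p = 0.0269 and 0.0263). HNRNPH1 and HNRNPH3 passed once the GC trend was removed, at 0.57 and 0.27 (adjusted p = 0.00214 and 0.0136).

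Over all 34 genes, the count of calls depended on the libraries used. Without UDI0055, 11 were higher and 3 lower (SRSF3, SRSF11 and CLK1), against 11.1% and 12.6% of all genes in that fit. With the GC trend removed, 12 were higher and 0 lower by edgeR, against 16.2% and 15.4% of all genes. Without UDI0052 and UDI0056, 4 were higher and 2 lower, against 4.07% and 8.98%. DESeq2 on all 6 libraries called 6 higher and 2 lower, against 6.71% and 9.73%. Without UDI0051, and likewise without UDI0054, edgeR called 0 in either direction. Calls over all genes were also fewer in these fits, with 62 higher and 278 lower without UDI0051. Without UDI0054 they were 94 and 475, where all 6 libraries gave 690 and 1097.

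As a group, the 17 hnRNP genes with PTBP1 held 4 rises and 0 falls, against 5.11% and 8.13% of all genes. At an unadjusted p under 0.05, edgeR gave 13 higher and 0 lower, against 14.9% and 16.6% of all genes. DESeq2 at an adjusted p under 0.05 gave 5 and 0, against 6.71% and 9.73%. All 17 fold changes were above 0, as were 51.3% of those of all genes, and their median was 0.27. A lean to values above 0 was not particular to these genes. Of the 208 other splicing genes described below, 166 lay above 0 (79.8%) and 42 below. All 20 decay and exon junction genes among them lay above 0, with a median of 0.32, and 11 of 20 other hnRNP and FET genes. The sign of all 17 held in each alternative run except without UDI0056, where HNRNPA0 came to −0.0095. Their summed level was 12816, 13011 and 11901.5 CPM in UDI0051, UDI0052 and UDI0053 and 9721, 10924 and 9709 CPM in UDI0054, UDI0055 and UDI0056. All 3 treated libraries were above all 3 DMSO libraries. Among DMSO libraries UDI0055 was the highest for 14 of these 17 genes, and among treated libraries UDI0053 was the lowest for 13. UDI0055 also had the highest share of counts in GC-rich genes, 23.9%. With the GC trend removed all 17 fold changes were above 0, with a median of 0.27. The part of GC content in the high levels of UDI0055 was not tested.

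**Figure D2:**
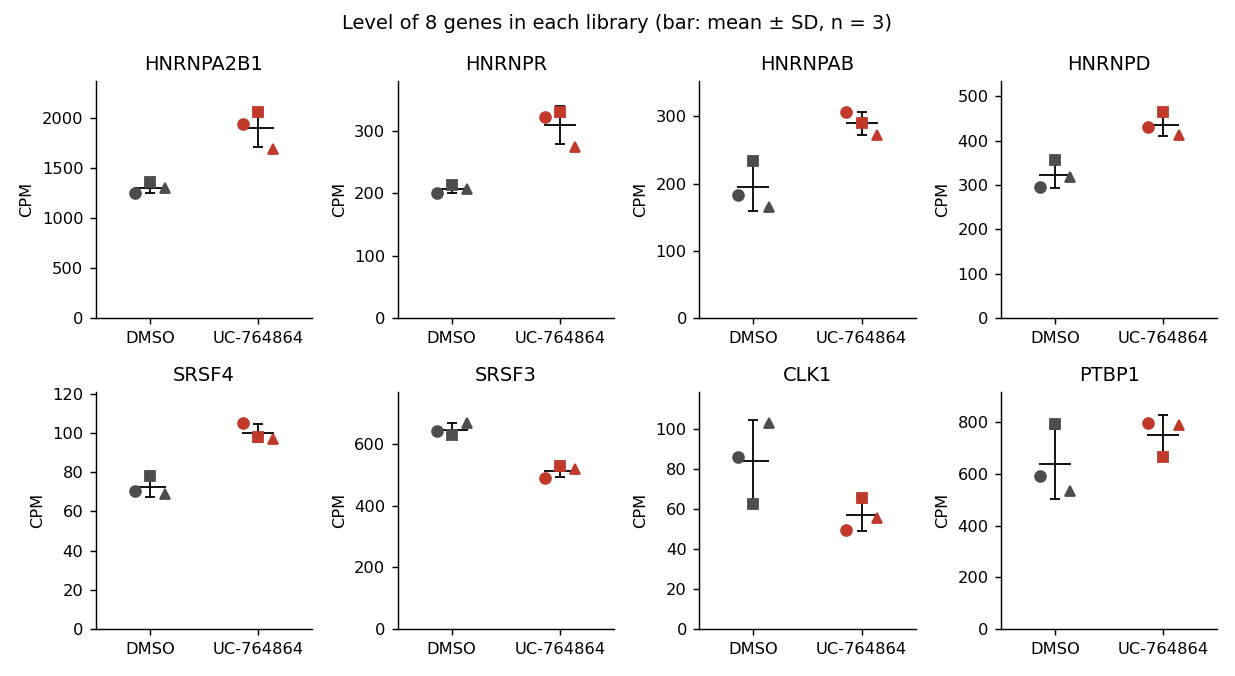
Level in CPM of 8 genes in each library (circle, UDI0054 or UDI0051; square, UDI0055 or UDI0052; triangle, UDI0056 or UDI0053), with the group mean and SD as a bar and each axis starting at 0. The groups stand apart for the first 6 genes shown and overlap for CLK1 and PTBP1, where the square of the DMSO group, UDI0055, lies at 62.4 and 793 CPM among the treated libraries.

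Of the 10 SR protein genes 1 rose, 1 fell and 8 did not pass, against 5.11% higher and 8.13% lower over all genes. The median log2 fold change of the 10 was 0.07. SRSF4, an SR protein with a long arginine-serine domain, stood at 105, 97.9 and 97.0 CPM after UC-764864 and at 70.5, 78.2 and 68.8 CPM after DMSO. The groups did not overlap and SRSF4 rose 1.38-fold (0.46 ± 0.11, edgeR adjusted p = 0.0221). SRSF3, the smallest SR protein, which also couples splicing to mRNA export and controls its own level through a poison exon, stood at 489, 527 and 519.7 CPM after UC-764864 and at 642, 628 and 669 CPM after DMSO. All 3 treated libraries lay below all 3 DMSO libraries, a 1.26-fold fall (−0.34 ± 0.10, adjusted p = 0.0467). Single libraries decided the call of SRSF4, whose adjusted p was 0.139 without UDI0051, 0.0728 without UDI0053 and 0.0958 without UDI0054. With the GC trend removed SRSF4 had 0.57 (adjusted p = 0.00232). SRSF3 passed narrowly and was lost without any single library but UDI0055 (adjusted p from 0.0633 to 0.2515), with no filter on low counts (0.0625) and once the GC trend was removed, where its log2 fold change was −0.14 (0.235).

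The other SR protein genes differed by less. SRSF5, a stress- and hormone-responsive SR protein, stood at 306, 302 and 273 CPM against 245, 254 and 234 CPM (0.27 ± 0.11, adjusted p = 0.112). Its groups did not overlap, and it passed with the GC trend removed (0.40, adjusted p = 0.0115). SRSF9, a relative of SRSF1, had 175 to 183 CPM against 146 to 175 CPM (0.17 ± 0.11, adjusted p = 0.312), and SRSF7, a relative of SRSF3 with a zinc knuckle, 359 to 409.9 CPM against 336 to 367 CPM (0.14 ± 0.11, adjusted p = 0.396). SRSF1, the founding SR protein and a proto-oncogene, averaged 436 ± 19.7 CPM in treated and 438 ± 24.5 CPM in DMSO libraries (−0.01 ± 0.10, adjusted p = 0.964). SRSF2, which is mutated in myeloid neoplasms, averaged 342 ± 19.5 and 359 ± 53.8 CPM (−0.07 ± 0.13, adjusted p = 0.743), and SRSF6 337 ± 15.2 and 362 ± 17.5 CPM (−0.10 ± 0.10, adjusted p = 0.529). For SRSF1, SRSF2 and SRSF6 the groups overlapped. SRSF11, which associates with U2AF, stood at 209, 229.9 and 216 CPM after UC-764864 and at 258, 221 and 326 CPM after DMSO (−0.30 ± 0.14, adjusted p = 0.172). UDI0055 lay within the treated range, and without it SRSF11 fell (−0.42, adjusted p = 0.0317), while its sign turned once the GC trend was removed (0.10, adjusted p = 0.289). SRSF10, a splicing repressor when dephosphorylated, stood at 23.7, 27.2 and 24.3 CPM against 28.8, 8.26 and 24.6 CPM. UDI0055 alone set the spread of SRSF10, whose log2 fold change was 0.29 ± 0.33 (adjusted p = 0.574) with it and −0.10 (adjusted p = 0.64) without it.

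The TRA2 genes, whose proteins bind GAA-rich enhancers as partners of SR proteins, did not pass. At an unadjusted p under 0.05, edgeR called 0 of the 2 in either direction, as did DESeq2 after adjustment. Over all genes edgeR gave 14.9% higher and 16.6% lower, and DESeq2 6.71% and 9.73%. TRA2B stood at 423 to 459.5 CPM after UC-764864 and at 449 to 495 CPM after DMSO (−0.11 ± 0.10, adjusted p = 0.508), and TRA2A at 75.5 to 85.2 CPM against 74.1 to 94.8 CPM (−0.04 ± 0.13, adjusted p = 0.864). RBM39, a U2AF2-related splicing factor on which many acute myeloid leukaemias depend and which aryl sulfonamides degrade, stood at 381, 421 and 369 CPM against 430.3, 337 and 483 CPM. Its DMSO libraries spanned the treated ones, and the log2 fold change was −0.09 ± 0.14 (adjusted p = 0.671).

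The CLK genes, whose dual-specificity kinases release SR proteins from nuclear speckles, had values on both sides of 0 and none passed. By edgeR 0 of 4 were higher and 0 lower, against 5.11% and 8.13% of all genes. At an unadjusted p under 0.05 these counts were 0 and 1, against 14.9% and 16.6%. DESeq2 called 0 higher and 1 lower, CLK1, against 6.71% and 9.73%. CLK1, much of whose transcript is held in the nucleus with introns retained, stood at 49.5, 65.7 and 55.7 CPM after UC-764864 and at 85.9, 62.4 and 103 CPM after DMSO. The DMSO library UDI0055 lay below the treated library UDI0052, so the groups overlapped. The log2 fold change of −0.56 ± 0.18, the lowest of the 34 genes, just missed the threshold (adjusted p = 0.057). CLK1 passed as lower without UDI0055 (−0.73, adjusted p = 0.00742), without UDI0052 (0.0481), without both UDI0052 and UDI0056 (0.0315), with DESeq2 (0.0219), with no filter (0.00142) and scaled by library size alone (0.0491). With the GC trend removed its value was −0.10 (adjusted p = 0.402). CLK4, its closest relative, averaged 27.0 ± 0.66 and 31.8 ± 4.07 CPM (−0.23 ± 0.13, adjusted p = 0.239), and its sign turned with the GC trend removed (0.18). CLK2 averaged 55.3 ± 3.90 against 47.0 ± 5.09 CPM (0.24 ± 0.12, adjusted p = 0.214) and CLK3 79.0 ± 5.16 against 70.4 ± 4.57 CPM (0.17 ± 0.11, adjusted p = 0.337).

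Related genes were compared within each library as the log2 ratio of their levels, which removes any scaling of the library. Over 12 pairs the groups did not overlap for 3. For levels of single genes, the groups stood apart in 19.0% (higher) and 17.0% (lower) of all genes tested. No such share was taken for ratios of other genes. The ratio of SRSF3 to SRSF7 was 0.31, 0.36 and 0.53 on the log2 scale after UC-764864 and 0.81, 0.90 and 0.91 after DMSO, lower by 0.47 ± 0.08 (SE). The ratio of SRSF4 to SRSF6 was −1.63, −1.86 and −1.78 after UC-764864 and −2.29, −2.21 and −2.47 after DMSO, a difference of 0.57 ± 0.10. For SRSF10 to SRSF11 the difference of 0.75 ± 0.46 came to 0.32 without UDI0055, where SRSF10 was low. Each of these 3 pairs had an exact two-sided permutation p of 0.1, the smallest that 3 libraries against 3 allow, and an adjusted p of 0.4, so none could pass. The ratio of HNRNPA1 to HNRNPA2B1 averaged −0.29 ± 0.09 after UC-764864 and −0.02 ± 0.17 after DMSO (SD, exact p = 0.2), and the groups overlapped. HNRNPA1 against HNRNPA3 and PTBP1 against HNRNPL differed by −0.05 ± 0.10 and 0.08 ± 0.13 between treatments (SE, exact p = 0.7 and 0.5).

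**Figure D3:**
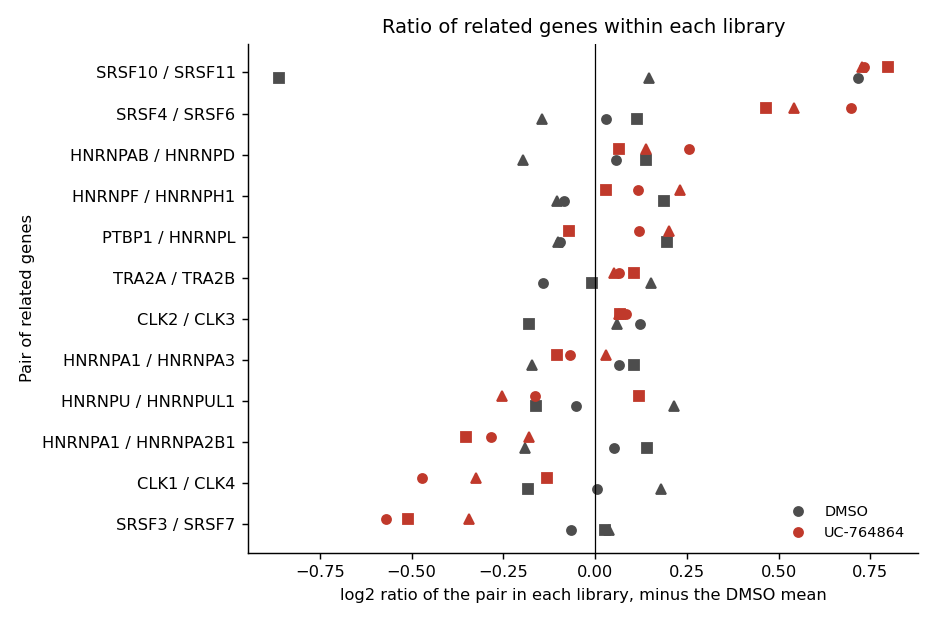
Log2 ratio of 12 pairs of related genes in each library, less the pair's DMSO mean, for DMSO (grey) and UC-764864 (red); circles are UDI0054 or UDI0051, squares UDI0055 or UDI0052, triangles UDI0056 or UDI0053. The groups stand apart for SRSF3 over SRSF7, SRSF4 over SRSF6 and SRSF10 over SRSF11, and the square far to the left is SRSF10 over SRSF11 in UDI0055.

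Several hnRNP genes have processed pseudogenes, and reads that match a gene and its copies can be split between them. The table holds 127 rows that are named as copies of 17 of the 34 genes. Of these, 9 lie among the rows left out because of UDI0055, and of the other 118, from 16 genes, 11 reached a mean of 1 CPM. Of these 11, 8 rose and 0 fell, against 5.11% and 8.13% of all genes. At an unadjusted p under 0.05 edgeR gave 9 and 0, where all genes gave 14.9% and 16.6%. DESeq2 after adjustment gave 8 and 0, against 6.71% and 9.73%. HNRNPA1P48 stood at 118, 116 and 89.5 CPM after UC-764864 and at 67.2, 72.7 and 53.5 CPM after DMSO (0.74 ± 0.15, adjusted p = 0.0125). HNRNPA1P10 rose from 23.2 ± 6.55 to 46.6 ± 7.87 CPM (1.00 ± 0.20, adjusted p = 0.0125), and HNRNPKP4 went from 10.99 ± 0.928 to 20.0 ± 1.16 CPM (0.86 ± 0.13, adjusted p = 0.0045). HNRNPA3P6, HNRNPA1L2, HNRNPCP2 and HNRNPA1P39 rose too, by 0.88, 0.65, 0.51 and 1.57 on the log2 scale (adjusted p = 0.00934, 0.0195, 0.0306 and 0.0106), as did HNRNPA3P5 by 1.14 (0.00976). HNRNPA1P7 at 0.44 and HNRNPCP1 at 0.35 did not pass (0.096 and 0.373), nor did HNRNPLP2 at −0.27 (0.211).

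Counts on copies thus made up a larger part beside the gene after UC-764864 for HNRNPA1, HNRNPA3, HNRNPK and HNRNPC. All copy rows of HNRNPA1 together held 15.3%, 14.9% and 13.1% of that gene's own counts in UDI0051, UDI0052 and UDI0053 and 11.5%, 10.6% and 9.58% in UDI0054, UDI0055 and UDI0056. For HNRNPA3 the shares were 3.54% to 3.77% after UC-764864 and 2.09% to 2.68% after DMSO, and for HNRNPK 1.62% to 1.71% and 1.08% to 1.17%. For HNRNPC they were 2.96% to 3.25% after UC-764864 and 2.16% to 2.83% after DMSO. For HNRNPL they ran the other way, 3.71% to 4.55% against 5.10% to 6.25%. None of the shares given here overlapped between groups. With the counts of copies added to their gene, HNRNPA2B1, HNRNPR, HNRNPAB, HNRNPD and SRSF4 again were the 5 genes that rose, and SRSF3 fell. The level of each copy is uncertain, because how the counting treated reads with several matches is not given in the sources used here.

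**Figure D4:**
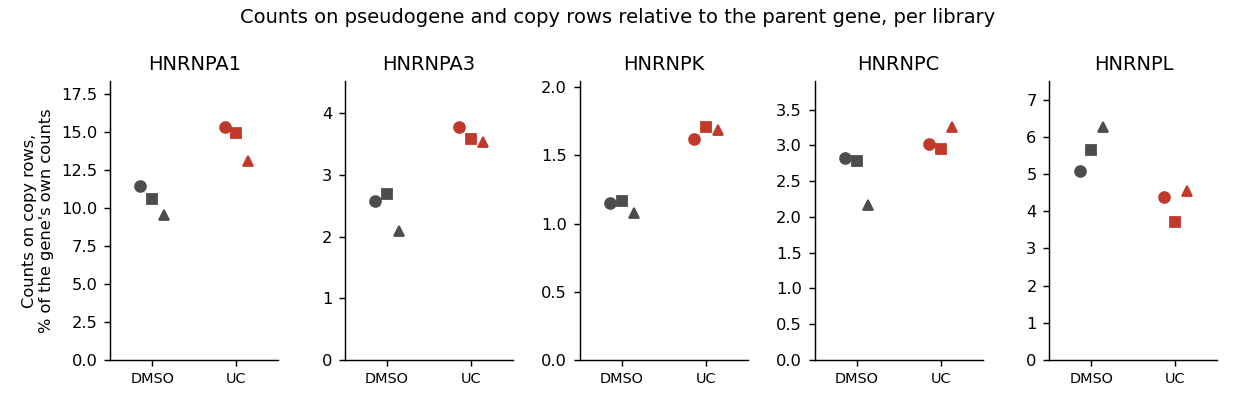
Counts on all pseudogene and copy rows of 5 hnRNP genes as a percentage of the gene's own counts, in each DMSO (grey) and UC-764864 (red, UC) library; circles are UDI0054 or UDI0051, squares UDI0055 or UDI0052, triangles UDI0056 or UDI0053. The shares are higher after UC-764864 for HNRNPA1, HNRNPA3, HNRNPK and HNRNPC and lower for HNRNPL, without overlap between groups.

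Genes on the opposite strand can share reads where counting ignores strand, and strand use is not given in the sources used here. CBX3, which starts beside HNRNPA2B1 on the other strand, stood at 364 ± 48.2 CPM after UC-764864 and at 490.0 ± 84.5 CPM after DMSO (−0.43 ± 0.14, edgeR adjusted p = 0.0679), the opposite sign to HNRNPA2B1. HNRNPU-AS1, named as an antisense RNA of HNRNPU, stood at 44.3, 55.7 and 50.8 CPM against 89.0, 47.9 and 98.1 CPM (−0.64 ± 0.22, adjusted p = 0.073). COX20, which overlaps HNRNPU, had a log2 fold change of −0.46 ± 0.15 (adjusted p = 0.0659). NFE2L3, which also overlaps HNRNPA2B1 on the other strand, had 0.20 ± 0.14 (adjusted p = 0.323), the same sign as HNRNPA2B1, and PHYKPL beside HNRNPAB had −0.04 ± 0.14 (0.863). The part of shared reads in these values was not tested.

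The rest of the splicing machinery was read from 8 lists of 227 other symbols, of which 208 were tested. Of these, 42 rose and 6 fell, against 5.11% and 8.13% of all genes, and the median over the lists was 0.21 on the log2 scale. The rises numbered 4 without UDI0051, 19 without UDI0052, 11 without UDI0053, 4 without UDI0054 and 68 without UDI0055, and the falls 1 without UDI0051, 2 without UDI0053, 2 without UDI0054 and 10 without UDI0055. Calls over all genes moved in the same fits, with 62, 295, 166, 94 and 1525 higher without UDI0051, UDI0052, UDI0053, UDI0054 and UDI0055, and 278, 460, 475 and 1729 lower without UDI0051, UDI0053, UDI0054 and UDI0055. In the list of the U1 and U2 particles, Sm proteins and branch site factors, which recognize the splice sites, 9 of 29 rose and 1 fell. SNRPF, an Sm ring protein, went from 79.3 ± 6.0 to 122 ± 5.24 CPM (0.62 ± 0.11, adjusted p = 0.00869), while DDX46, the helicase that loads U2, and SF3A3, a U2 subunit, rose by 0.65 and 0.56 on the log2 scale (0.0106 and 0.0125). The single fall was SNRPE at −0.72 (adjusted p = 0.0165), another Sm ring protein, named after its values were seen. In the tri-snRNP, Prp19 and helicase list, the catalytic part, 12 of 43 rose and 0 fell. At an unadjusted p under 0.05 edgeR gave 23 and 1, against 14.9% and 16.6% of all genes. DESeq2 after adjustment gave 16 and 1, against 6.71% and 9.73%. PRPF8, the core of the catalytic centre, stood at 845, 735 and 740.2 CPM after UC-764864 and at 499, 614 and 454 CPM after DMSO. Its groups did not overlap (0.57 ± 0.13, adjusted p = 0.0182). PRPF3 at 0.60 and the helicase SNRNP200 at 0.49 rose as well (0.0134 and 0.0242).

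Of 15 genes for SR kinases, phosphatases and import, 2 rose and 1 fell, against 5.11% and 8.13% of all genes. The one that fell, PPP1CB, a catalytic subunit of protein phosphatase 1, stood at 47.6, 61.7 and 52.8 CPM after UC-764864 and at 106, 117 and 187 CPM after DMSO (−1.34 ± 0.20, adjusted p = 0.00391). TNPO3, the importin that carries phosphorylated SR proteins into the nucleus, rose by 0.54 ± 0.12, from 81.1 ± 10.5 to 118 ± 6.21 CPM (adjusted p = 0.0189), and TOP1, which also phosphorylates SR proteins, by 0.42 (0.0404). Of 29 other genes for proteins with arginine-serine domains 7 rose and 0 fell, against the same 5.11% and 8.13%. At an unadjusted p under 0.05 edgeR gave 11 and 2, against 14.9% and 16.6% of all genes. DESeq2 after adjustment gave 9 and 1, against 6.71% and 9.73%. PNN, SCAF4 and SRRM1, which sit in speckles or at the exon junction or polymerase, rose by 0.55, 0.50 and 0.48 (0.0159, 0.0232 and 0.0241).

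Relatives of the hnRNP genes outside the 34 held calls in both directions. Of 20 other hnRNP and FET genes 3 rose and 3 fell, against 5.11% and 8.13% of all genes, with a median of 0.03. TAF15, which encodes a protein that binds RNA and polymerase II, rose from 125 ± 17.6 to 223 ± 27.0 CPM (0.83 ± 0.14, adjusted p = 0.00616). HNRNPLL, the paralog of HNRNPL, fell from 118 ± 18.4 to 79.6 ± 9.01 CPM (−0.56 ± 0.14, 0.0253). The other falls, named after their values were seen, were those of PTBP2 and PTBP3, paralogs of PTBP1, at −0.72 ± 0.20 and −0.58 ± 0.16 (0.0349 and 0.0335). PTBP2 stood at 9.55, 12.0 and 11.2 CPM against 16.9, 13.5 and 23.9 CPM, with no overlap. PTBP1 protein is known to keep PTBP2 transcripts low through skipping of an exon. PTBP1 itself did not pass (0.23 ± 0.15, edgeR adjusted p = 0.308). Its part in the fall of PTBP2 was not tested.

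In the other 3 lists, 5 of 29 further RNA-binding regulators rose and 1 fell. Of 20 decay and exon junction genes 2 rose and 0 fell, and of 23 export and 3′ end genes 2 rose and 0 fell. Over all genes 5.11% rose and 8.13% fell. At an unadjusted p under 0.05 the decay list had 14 higher and 0 lower. The export list had 6 and 1, against 14.9% and 16.6% over all genes. DESeq2 after adjustment gave 4 and 0 in each of these 2 lists, against 6.71% and 9.73%. ILF2, a double-stranded RNA-binding factor, and RBM6 rose by 0.50 and 0.46 (adjusted p = 0.0137 and 0.0230), and MBNL2, a muscleblind regulator, fell from 7.82 ± 1.59 to 4.40 ± 0.844 CPM (−0.81 ± 0.20, 0.0231). MAGOH, a core subunit of the exon junction complex, rose by 0.67 ± 0.12 (0.00769), and CASC3 at 0.38 did not pass (0.0562). FIP1L1 and CPSF7 of the cleavage machinery rose by 0.52 and 0.42 (0.0161 and 0.0389), and the export receptor gene NXF1 at 0.37 did not pass (0.0574).

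**Figure D5:**
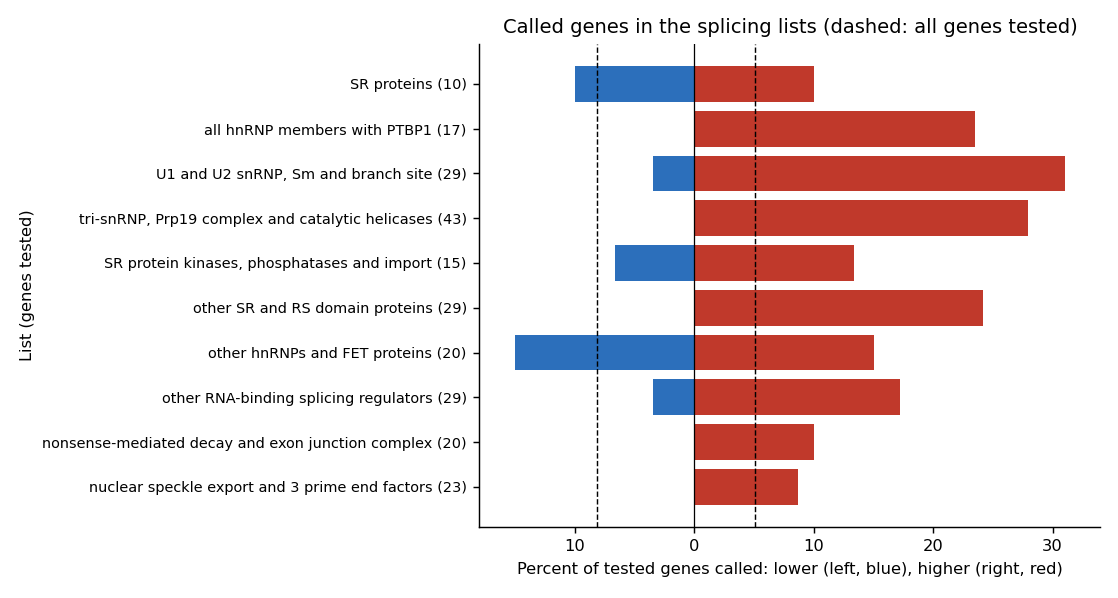
Percentage of tested genes called higher (red, right) or lower (blue, left) among the SR protein genes, the hnRNP genes and 8 lists of other splicing genes, with the number tested in brackets; dashed lines give 5.11% and 8.13% of all genes. Rises lie past the dashed line in each of the 10 bars, though some rest on few genes. These are 1 of 10 SR protein genes, 2 of 15 kinase, phosphatase and import genes, 2 of 20 decay genes and 2 of 23 export genes. Falls lie past it for the other hnRNP and FET genes (3 of 20). For the SR protein genes they do so by SRSF3 alone, and 1 of 10 is near the share of all genes.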

How the data were processed

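The deposited table holds raw counts for each gene, and a second table gives each column its treatment but no replicate number. FastQC 0.11.7, HISAT2 2.0.5, featureCounts 1.5.2 and build GRCh37 are named without roles in the submitters' processing notes. The annotation and the treatment of strand and of reads with several matches were not given in the sources used here. Counts were fitted with edgeR 4.0.16 in R 4.3.3: filterByExpr, TMM factors (0.978 to 1.03) and the quasi-likelihood F test over 13490 genes, with Benjamini-Hochberg adjustment and a threshold of 0.05. Positive log2 values mean higher after UC-764864. Standard errors were derived from the fold change and its F statistic. A count of 3, the detection floor, was 0.123 to 0.198 CPM and covers counting error only. On simulated data for this comparison (13309 genes tested), 97% of changes of 1 on the log2 scale and 57% of those of 0.58 were called. So were 8 genes simulated without change. Changes were placed only in genes above a minimum level, and none smaller than 0.58 was simulated. Log2 fold changes of the 34 genes ran from −0.56 to 0.58, so the rates do not give the share found of their smaller values.

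Rows that UDI0055 holds only as 0, within unbroken runs of 0 that include rows where every other library has 50 counts or more, were left out. GC content is that of the longest GENCODE transcript of a symbol, and promoter windows come from RefSeq (GRCh38.p14). Every one of the 34 genes was named, as were the 3 genes with the smallest p in each other list, except 2 that are not reported here, and copies with a mean of at least 1 CPM. The members, lists and tests were chosen with earlier results of these data known. Alternatives were RLE factors, library size only, no filter, DESeq2 1.42.0, all rows as deposited, each library left out, UDI0052 and UDI0056 left out, the GC trend removed and copies summed.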

Additional observations from a re-analysis of the deposited data

Results flagged for a closer look

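In rows left out of the comparison, because UDI0055 holds them only as 0, 2 splicing genes rose when the other 5 libraries were fitted, a fit chosen after the data were seen. NONO, a paraspeckle protein gene, stood at 543, 518 and 498 CPM after UC-764864 and at 413 and 357 CPM in UDI0054 and UDI0056 (log2 fold change 0.43 ± 0.11, edgeR adjusted p = 0.0173). CSTF2, a cleavage stimulation factor gene, stood at 58.5, 59.0 and 52.3 CPM against 40.4 and 40.0 CPM (0.49 ± 0.13, adjusted p = 0.0162). In that fit 9.88% of all genes were higher and 13.9% lower.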

How the results depend on the processing

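No paired analysis was possible because the columns carry no replicate number. All fits without a library rest on 2 libraries in a group. Leaving out each library in turn gave 0 to 11 of the 34 genes higher and 0 to 3 lower, 4 to 68 other splicing genes higher and 1 to 10 lower, and 62 to 1525 of all genes higher and 278 to 1729 lower. Calls among the 34 genes were 0 in either direction without UDI0051 and without UDI0054, and 11 higher and 3 lower without UDI0055. With the rows of 0 kept as counts, 0 of the 34 genes were higher and 0 lower by edgeR, with 1 and 0 of the other splicing genes and 22 and 125 of all genes. With the GC trend removed, 12 of the 34 genes were higher and 0 lower, 102 other splicing genes were higher, and 1881 of all genes were higher and 1792 lower. DESeq2, library size only and leaving out UDI0052 and UDI0056 each called 2 of the 34 genes lower. The last gave 10 other splicing genes lower, and no filter gave 11, with 1676 of all genes lower. The median of all genes moved from 0.01 to −0.03 with library size only. The cause of these differences was not tested.

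Values that turned sign belonged to genes that did not pass in either setting. With the GC trend removed SRSF1 (0.082), SRSF6 (0.077), SRSF11 (0.10), TRA2A (0.065), TRA2B (0.033) and CLK4 (0.18) turned positive, and TRA2A was 0.005 without UDI0052 and UDI0056. With each library left out in turn, log2 fold changes ran from −0.058 to 0.033 for SRSF1, −0.169 to 0.0499 for SRSF2, −0.096 to 0.63 for SRSF10, −0.114 to 0.0802 for TRA2A, −0.0095 to 0.277 for HNRNPA0 and −0.226 to 0.027 for RBM39. Treatment differences of log2 ratios ran from −0.018 to 0.134 for CLK2 to CLK3, −0.134 to 0.0057 for HNRNPA1 to HNRNPA3 and −0.209 to 0.0079 for HNRNPU to HNRNPUL1. HNRNPUL1 and HNRNPUL2, whose names match the rule for copies of HNRNPU, are separate genes and were not summed.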

Other observations

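Splicing genes in the rows that UDI0055 holds only as 0 numbered 11. In the 5 other libraries 2 were higher and 1 lower by edgeR, against 9.88% and 13.9% of all genes in that fit. The lower gene was SRPK3, an SR protein kinase, at 2.41, 2.03 and 2.69 CPM after UC-764864 and 5.42 and 4.21 CPM after DMSO (log2 fold change −1.02 ± 0.21, adjusted p = 0.00622). HNRNPH2, the X-linked paralog of HNRNPH1, averaged 97.0 ± 7.53 CPM after UC-764864 (SD, n = 3) and stood at 91.5 and 106 CPM after DMSO (−0.03 ± 0.13 SE, adjusted p = 0.897). RBMX, which encodes hnRNP G, had 329 to 397 CPM against 314 and 331 CPM (0.15 ± 0.12, adjusted p = 0.361). RBM10, a regulator of exon skipping, had 98.3 to 119.9 CPM against 91.0 and 80.4 CPM and just missed the threshold (0.38 ± 0.13, adjusted p = 0.0523).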
